A study of Mus musculus with 24 samples.

Results

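The genes described here build and regulate the mineralising bone matrix: Dmp1, Ibsp, Spp1, Mepe, Phex, Ifitm5 and Smpd3. They were chosen by name, as 7 listed symbols, and each was read from the probe sets that the array annotation assigns to that symbol alone, and where there were several the one with the greatest mean signal stood for the gene. Of the 7 symbols, 6 had a probe set, out of 18194 genes represented on the array. No probe set was assigned to Spp1 (osteopontin), which was not analysed here. A gene was tested when its signal exceeded the 40th percentile of an array's signals (a log2 level of 6.33 to 6.47) on at least 3 arrays. That left 5 of the 7 listed genes (Dmp1, Ibsp, Phex, Ifitm5 and Smpd3) among 13943 tested, and Mepe was above that level in only 2 of 24 arrays.

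The arrays measured RNA from the jaws of mouse embryos at embryonic day 14.5, on a C57B6 background. Mutant embryos carried Wnt1-Cre and floxed alleles of Alk5 (Tgfbr1), the type I receptor for TGF-beta, and came from matings of Wnt1-Cre;Alk5 fl/+ with Alk5 fl/fl mice. Control embryos were littermates, and which of the genotypes of this cross they had is not given in the sources used here. Each jaw was dissected into a distal and a proximal end, so the mutant and the control embryos each contributed distal mandible, proximal mandible, distal maxilla and proximal maxilla, with 3 arrays in each of the 8 groups. Wnt1-Cre recombines in the neural crest lineage, which forms the jaw mesenchyme and its bone, and leaves Alk5 intact in epithelium, endothelium, muscle and blood cells. A cleft palate and a calvarial defect served to recognise the mutants. Whether each array holds RNA of a different embryo is not given in the labels, and p-values therefore refer to the spread between arrays, which may be technical.

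Osteoblasts secrete a collagen matrix and then mineralise it. Dmp1, Ibsp (bone sialoprotein), Mepe and Spp1 encode acidic, integrin-binding glycoproteins of that matrix, known as the SIBLING family, whose genes lie side by side on mouse chromosome 5. Phex encodes a membrane endopeptidase of osteoblasts and osteocytes whose loss causes phosphate wasting. Ifitm5 (Bril) encodes a small osteoblast membrane protein, and Smpd3 encodes neutral sphingomyelinase 2, whose loss in the mouse leaves bone poorly mineralised.

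Because 5 of these genes moved together across the arrays, the 250 bases before their annotated starts are shown, taken from RefSeq on GRCm38.p6, where 6 of the 7 symbols had an entry and Smpd3 did not. Both strands were searched for a RUNX core (TGTGGT, or ACCACA), a homeobox core (TAATTG, or CAATTA) and a GC box (GGGCGG, or CCGCCC). These motifs do not overlap one another in the windows shown, and capitals mark each match.
Dmp1, first start (chr5:104197325-104197574, plus strand): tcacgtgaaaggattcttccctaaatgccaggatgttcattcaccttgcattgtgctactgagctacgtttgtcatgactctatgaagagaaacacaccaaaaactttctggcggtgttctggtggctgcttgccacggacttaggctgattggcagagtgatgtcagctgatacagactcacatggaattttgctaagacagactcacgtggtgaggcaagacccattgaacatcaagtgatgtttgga
Dmp1, second start (chr5:104202367-104202616, plus strand): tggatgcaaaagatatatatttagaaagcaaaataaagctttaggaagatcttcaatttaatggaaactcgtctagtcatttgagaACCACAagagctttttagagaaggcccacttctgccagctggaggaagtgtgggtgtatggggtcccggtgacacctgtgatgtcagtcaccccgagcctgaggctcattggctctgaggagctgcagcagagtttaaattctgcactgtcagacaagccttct
Ibsp (chr5:104299037-104299286, plus strand): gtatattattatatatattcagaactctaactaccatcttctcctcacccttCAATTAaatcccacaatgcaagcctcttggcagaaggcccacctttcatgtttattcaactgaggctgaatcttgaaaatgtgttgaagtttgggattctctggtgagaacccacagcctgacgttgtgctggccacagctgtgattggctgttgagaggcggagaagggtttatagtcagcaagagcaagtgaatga
Phex (chrX:157415287-157415536, minus strand): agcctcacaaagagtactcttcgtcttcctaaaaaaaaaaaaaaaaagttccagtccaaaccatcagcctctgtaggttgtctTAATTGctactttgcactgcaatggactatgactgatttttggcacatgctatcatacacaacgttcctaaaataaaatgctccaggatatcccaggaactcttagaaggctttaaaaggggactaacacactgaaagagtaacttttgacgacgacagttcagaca
Ifitm5 (chr7:140950244-140950493, minus strand): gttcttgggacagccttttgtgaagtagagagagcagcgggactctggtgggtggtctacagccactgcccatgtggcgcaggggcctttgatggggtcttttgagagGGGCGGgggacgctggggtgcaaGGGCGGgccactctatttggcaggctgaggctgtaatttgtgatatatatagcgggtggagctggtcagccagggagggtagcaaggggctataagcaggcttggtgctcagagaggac
The first Dmp1 window held no match. The second held 1 RUNX core beginning 164 bases before the start, as 14.0% of 32851 windows of this length did. Ibsp and Phex each held 1 homeobox core, 198 and 167 bases before their starts, a motif present in 7.17% of windows. Ifitm5 held 2 GC boxes, 142 and 119 bases before its start, a motif present in 32.7% of windows, and the Mepe window, not printed, held 2 RUNX cores. These are matches of letters, and no binding was measured.

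Before the results, 4 mutant arrays need naming. Mutant proximal mandible replicate 3 had control proximal mandible as its closest other group (mean r over genes 0.982, against 0.986 with its own group). A control group was also closest for mutant proximal mandible replicate 1 (control distal mandible, 0.972) and mutant distal maxilla replicates 1 and 2 (control distal maxilla, 0.977 and 0.975). Replicate 2 of the mutant proximal mandible had 0.986 with its own group and 0.982 with mutant distal mandible. Mutant distal maxilla replicate 3 had a mean r of 0.972 with its own group and 0.976 with mutant distal mandible. Mutant proximal maxilla replicate 3 had a mean r of 0.969 with its own group and 0.981 with mutant proximal mandible, and replicate 2 of that group had 0.979 with its own group and 0.978 with control proximal maxilla. Of the mutant arrays, 8 of 12 (replicates 1 and 3 of each region) had high signals of both Xist and the Y-linked genes Kdm5d, Uty and Eif2s3y, against 0 of 12 control arrays, and the labels do not say whether embryos were pooled. Col1a1, the main bone collagen chain, read between 10.94 and 13.35 on the arrays, and Sp7, an osteoblast transcription factor, between 8.61 and 11.76. Whether these signals came from bone-forming cells was not measured. Dlx5 and Dlx6, mandibular patterning factors, were higher in control mandible than in control maxilla by 0.94 ± 0.12 (adjusted p = 9.02e-06) and 1.25 ± 0.17 (adjusted p = 1.63e-05) on the log2 scale. The targeted gene, Tgfbr1, read 12.20 to 12.57 on mutant arrays, against 11.92 to 12.36 on control arrays, and was higher in mutants by 0.26 ± 0.04 over the 4 regions (adjusted p = 0.000146). Whether its probe set covers the deleted exons is not known here, so the value does not check the genotype.

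**Figure D1:**
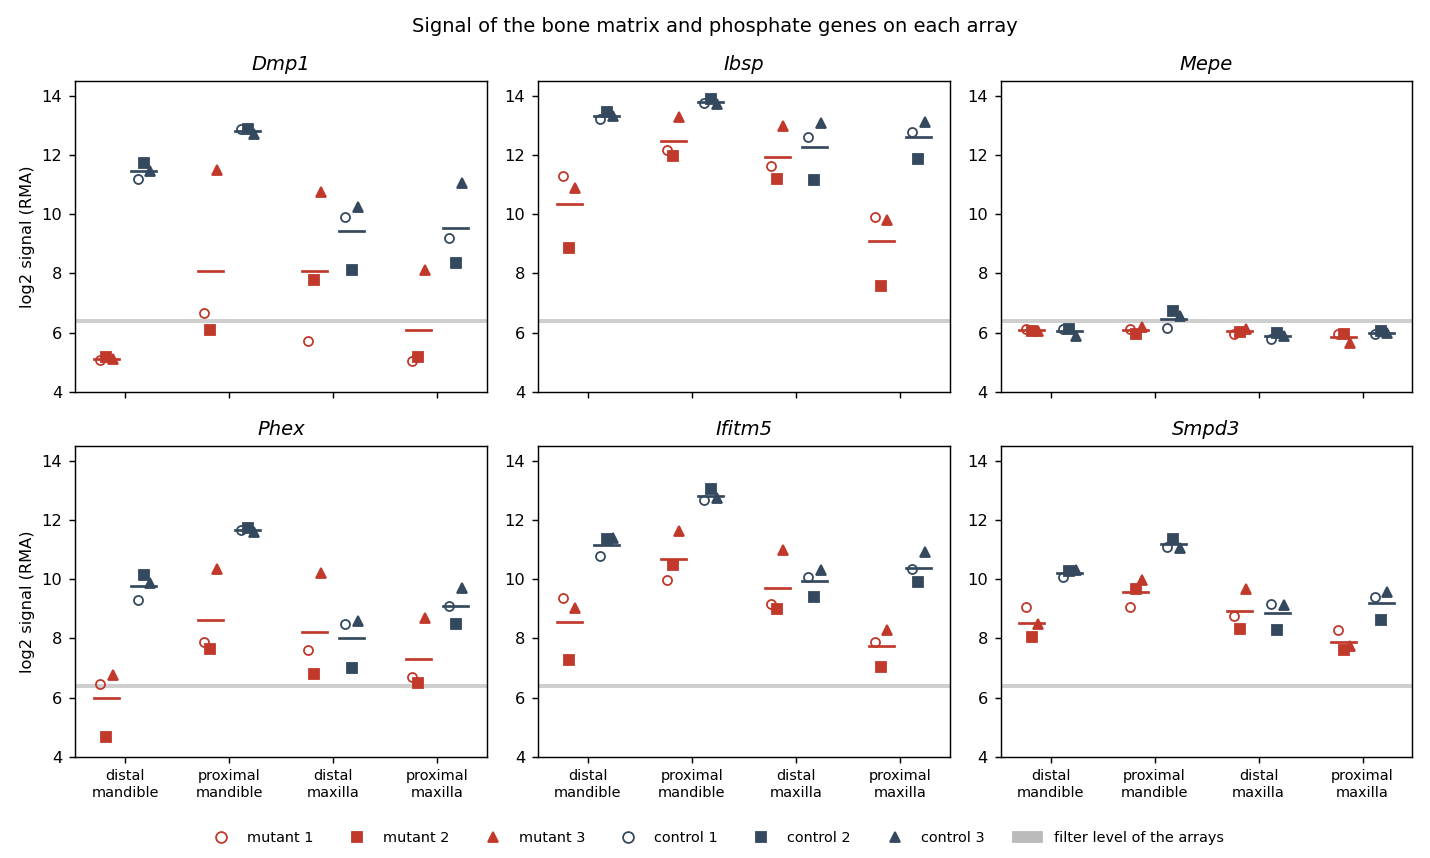
Log2 RMA signal (vertical axis) of 6 genes on each of the 24 arrays, by region (horizontal axis), with mutant arrays in red left of control arrays in blue. Symbols give the replicate number, short lines the group means, and the grey band the filter level of the arrays, 6.33 to 6.47. In both mandible regions the mutant arrays of Dmp1, Ibsp, Phex, Ifitm5 and Smpd3 lie below the control arrays, Mepe stays near the band, and the distal maxilla groups overlap.

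Dmp1, a matrix phosphoprotein of osteoblasts and osteocytes that binds calcium, had its lowest mutant group mean in the distal mandible. Its probe set 1443745_s_at read 5.07, 5.17 and 5.09 in the mutant distal mandible, against 11.20, 11.72 and 11.44 in the control distal mandible (log2 signal, replicates 1 to 3). All 3 mutant arrays were below the filter level and all 3 control arrays far above it. The mutant mean was at least 34.3-fold below the control mean, a bound set by the filter level that leaves the spread between arrays aside. The fitted log2 change was -6.34 ± 1.22 (SE, interval of the fit -8.89 to -3.80). Its adjusted p was 0.00169 from limma over 13943 genes. In the proximal mandible Dmp1 read 6.66, 6.10 and 11.48 in mutants, against 12.89, 12.87 and 12.69 in controls. Mutant replicates 1 and 2 lay near the filter level and replicate 3 was close to the controls, yet the groups did not overlap. The log2 change was -4.74 ± 1.22 (adjusted p = 0.00879), and -6.44 (adjusted p = 0.000341) without mutant replicate 3. Without mutant replicate 2 it was -3.75 and no longer called (adjusted p = 0.0607).

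In the distal maxilla Dmp1 read 5.72, 7.79 and 10.74 in mutants, against 9.90, 8.12 and 10.24 in controls. The mutant arrays spanned the whole control range, with replicate 3 the highest of all 6 arrays. The log2 change of -1.33 ± 1.22 did not pass the test (adjusted p = 0.538, 95% interval of the fit -3.88 to 1.21). In the proximal maxilla Dmp1 read 5.03, 5.17 and 8.11 in mutants, against 9.18, 8.35 and 11.05 in controls. Here the mutant arrays were all lower, with replicates 1 and 2 below the filter level and replicate 3 just under the lowest control. The mutant mean of 6.10 was under the filter level. That level bounds the difference of the group means at no less than 5.99-fold, with the spread between arrays left aside. The fitted log2 change of -3.43 ± 1.22 missed the threshold (adjusted p = 0.0771, 95% interval of the fit -5.97 to -0.88). With all 4 mutant arrays numbered 3 left out, a choice made after seeing the data, Dmp1 was called in both maxilla regions, at -2.66 in the distal (adjusted p = 0.028) and -4.43 in the proximal maxilla (adjusted p = 0.00121). Both mutant arrays left in the proximal maxilla were below the filter level, so that fitted value is no measured size.

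Ibsp, the sialoprotein that nucleates hydroxyapatite and is made by osteoblasts at the onset of mineralisation, was well above the filter level on all 24 arrays. Probe set 1417484_at read 11.28, 8.87 and 10.87 in the mutant distal mandible, against 13.21, 13.44 and 13.32 in the control distal mandible. Every mutant array was lower, and replicate 2 was the lowest. The log2 change was -2.98 ± 0.65 (adjusted p = 0.00419). In the proximal mandible Ibsp read 12.18, 11.95 and 13.28 in mutants, against 13.76, 13.91 and 13.74 in controls. The groups did not overlap, but the change of -1.33 ± 0.65 did not pass the test (adjusted p = 0.171). It passed when only the 6 proximal mandible arrays were fitted (adjusted p = 0.0211), and also when the replicate number was a block (adjusted p = 0.0386), though the numbers do not pair these arrays.

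In the distal maxilla Ibsp read 11.64, 11.20 and 12.98 in mutants, against 12.59, 11.15 and 13.09 in controls, and the groups overlapped throughout. The log2 change was -0.34 ± 0.65 (adjusted p = 0.79, interval -1.71 to 1.03). Ibsp read 9.90, 7.59 and 9.80 in the mutant proximal maxilla, against 12.79, 11.87 and 13.13 in the control proximal maxilla. All mutant arrays were below all control arrays, and replicate 2 was again the lowest. The proximal maxilla had the larger of its 2 called decreases, -3.50 ± 0.65 (adjusted p = 0.00242), a call lost when only the 6 proximal maxilla arrays were fitted (adjusted p = 0.0517).

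Mepe, the matrix phosphoglycoprotein of late osteoblasts and osteocytes, was at or near the filter level everywhere. Probe set 1421650_at ranged from 5.65 to 6.18 over the 12 mutant arrays and from 5.77 to 6.72 over the 12 control arrays. The only arrays above the filter level were replicates 2 and 3 of the control proximal mandible, at 6.72 and 6.55, against 5.96 and 6.18 for mutant replicates 2 and 3 of that region. Fitted without the filter, Mepe differed in the proximal mandible by -0.38 ± 0.12 (adjusted p = 0.038) and by -0.08 ± 0.06 over the 4 regions (adjusted p = 0.351). No fold is given, since both groups lay about the filter level.

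Phex is known from X-linked hypophosphataemia, where its loss raises circulating Fgf23. Probe set 1421979_at read 6.47, 4.68 and 6.77 in the mutant distal mandible, against 9.30, 10.15 and 9.86 in the control distal mandible. Of the mutant arrays, 2 of 3 were just above the filter level and replicate 2 was below it, and all were lower than the controls. The mutant mean of 5.97 was under the filter level. That level puts it at least 9.5-fold below the control mean, with the spread between arrays left aside. The fitted log2 change was -3.80 ± 0.81 (adjusted p = 0.00353, interval of the fit -5.49 to -2.10). Phex read 7.87, 7.65 and 10.35 in the mutant proximal mandible, against 11.68, 11.74 and 11.59 in the control proximal mandible. Mutant replicate 3 stood between the other 2 mutant arrays and the controls. The change of -3.05 ± 0.81 passed the test (adjusted p = 0.011), and it did not without mutant replicate 1 (-2.67, adjusted p = 0.0501) or mutant replicate 2 (-2.56, adjusted p = 0.0631).

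Phex read 7.60, 6.81 and 10.21 in the mutant distal maxilla, against 8.49, 7.0 and 8.60 in the control distal maxilla. The highest and the lowest of the 6 arrays were both mutant. The log2 change of 0.17 ± 0.81 (adjusted p = 0.921, interval -1.52 to 1.87) became -0.83 (adjusted p = 0.544) without mutant replicate 3. In the proximal maxilla Phex read 6.69, 6.51 and 8.68 in mutants, against 9.09, 8.50 and 9.71 in controls. Mutant replicate 3 lay above the lowest control array, and the change of -1.81 ± 0.81 did not pass the test (adjusted p = 0.158). With all mutant arrays numbered 3 left out it was -2.50 (adjusted p = 0.00733).

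Ifitm5, whose human counterpart is mutated in osteogenesis imperfecta type V, is made almost only by osteoblasts. Probe set 1440216_at read 9.36, 7.27 and 9.02 in the mutant distal mandible, against 10.79, 11.35 and 11.38 in the control distal mandible. The groups lay apart, with mutant replicate 2 the lowest, and the log2 change was -2.62 ± 0.54 (adjusted p = 0.00285). Ifitm5 read 9.96, 10.47 and 11.62 in the mutant proximal mandible, against 12.68, 13.05 and 12.74 in the control proximal mandible. These groups also lay apart, and the change was -2.14 ± 0.54 (adjusted p = 0.0081).

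Ifitm5 read 9.15, 9.0 and 10.97 in the mutant distal maxilla, against 10.07, 9.41 and 10.33 in the control distal maxilla. Mutant replicates 1 and 2 were below the controls and replicate 3 above them, and the change was -0.23 ± 0.54 (adjusted p = 0.832, interval -1.36 to 0.90). In the proximal maxilla Ifitm5 read 7.89, 7.04 and 8.29 in mutants, against 10.35, 9.90 and 10.94 in controls. Here replicate 3 stayed with the other mutant arrays, well under the controls. The change of -2.66 ± 0.54 passed the test (adjusted p = 0.00443).

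Smpd3 releases ceramide from sphingomyelin at the cell membrane. Probe set 1438665_at read 9.05, 8.04 and 8.50 in the mutant distal mandible, against 10.07, 10.28 and 10.30 in the control distal mandible. The groups lay apart, with a log2 change of -1.69 ± 0.34 (adjusted p = 0.00229). Smpd3 read 9.06, 9.67 and 9.96 in the mutant proximal mandible, against 11.10, 11.37 and 11.06 in the control proximal mandible. These lay apart as well, with a change of -1.61 ± 0.34 (adjusted p = 0.00212).

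Smpd3 read 8.77, 8.33 and 9.69 in the mutant distal maxilla, against 9.18, 8.30 and 9.15 in the control distal maxilla. The groups overlapped and the change was 0.05 ± 0.34 (adjusted p = 0.945, interval -0.66 to 0.76). In the proximal maxilla Smpd3 read 8.29, 7.60 and 7.74 in mutants, against 9.42, 8.61 and 9.57 in controls, with all mutant arrays lower. The change of -1.32 ± 0.34 passed the test (adjusted p = 0.0178), but the call was lost without control replicate 1 (adjusted p = 0.0664), control replicate 3 (0.0879), mutant replicate 2 (0.0553) or mutant replicate 3 (0.0725), and when only the 6 proximal maxilla arrays were fitted (0.0741).

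Counted together, most of the 5 tested genes were called lower in mutants in 3 of the 4 regions, and 0 were in the distal maxilla. No comparison set the distal maxilla by itself against the other regions, so a smaller effect there was not tested. In the distal mandible 5 of 5 fell at an adjusted p under 0.05, where 7.98% of all tested genes were called lower, with a median log2 change of -2.98 against 0.04 over all genes. In the proximal mandible 4 of 5 were called lower (10.4% of all tested genes), with a median of -2.14 against 0.04. Ibsp, also lower in its mean, did not pass in this fit. In the proximal maxilla 3 of 5 were called lower (4.79% of all tested genes), with a median of -2.66 against 0.03. Dmp1 and Phex, also lower in their means, did not pass. In the distal maxilla 0 of 5 were called by limma (1.12% of all tested genes were called lower), none had an unadjusted p under 0.05, and the median was -0.23 against 0.04. All mutant arrays lay below all control arrays for 5 of 5 genes in the distal mandible (17% of all genes), 5 of 5 in the proximal mandible (15.9%), 0 of 5 in the distal maxilla (6.97%) and 4 of 5 in the proximal maxilla (11.7%). The 4 regions of an embryo share their source, so these counts are not independent of each other. In whole tissue, fewer osteoblasts and less RNA per osteoblast cannot be told apart.

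**Figure D2:**
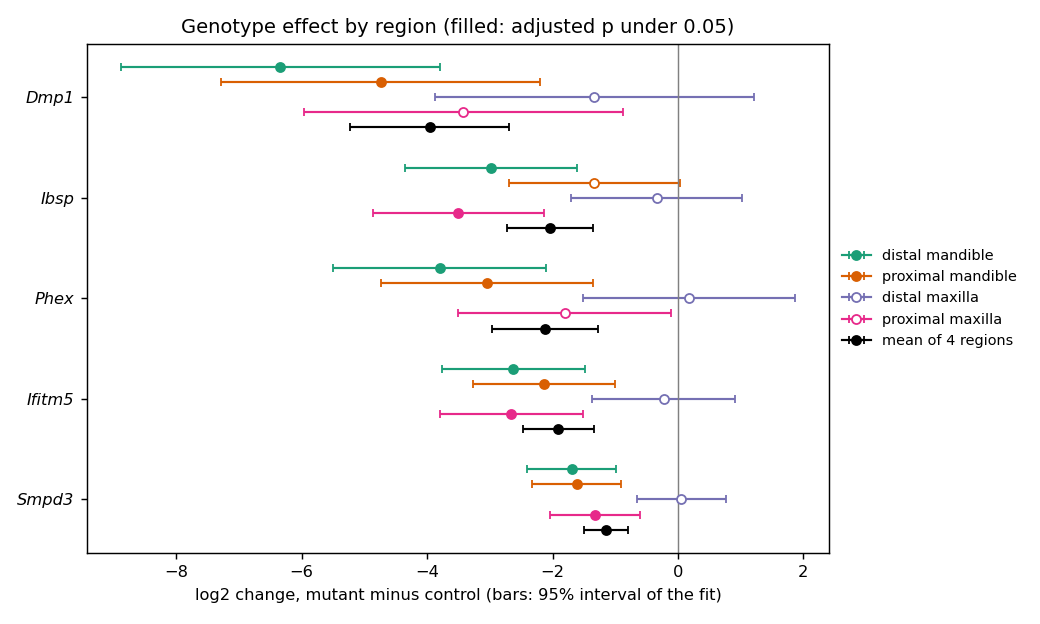
Log2 change, mutant minus control (horizontal axis), of the 5 tested genes, one row group per gene and one colour per region, with black for the mean of the 4 regions. Bars are 95% intervals of the limma fit, and filled points passed an adjusted p of 0.05. The distal maxilla intervals all include 0, while the distal mandible and the mean of the 4 regions are below 0 for each gene.

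Averaged over the 4 regions, all 5 genes fell (15.3% of all tested genes were called lower). Dmp1 averaged 6.85 in mutants and 10.80 in controls, a log2 change of -3.96 ± 0.61 (adjusted p = 4.55e-05). Phex followed at -2.12 ± 0.41 (adjusted p = 0.000384) and Ibsp at -2.04 ± 0.33 (adjusted p = 6.99e-05). Ifitm5 changed by -1.91 ± 0.27 (adjusted p = 1.95e-05), and Smpd3 by -1.14 ± 0.17 (adjusted p = 3.16e-05), or 2.21-fold. These 5 calls held whichever single array was left out, and without all mutant arrays numbered 3. The fit counts the 4 regions as independent, although high Xist and Y-linked signals repeated by replicate number across the regions of each genotype. Regions of the same number may thus share embryos. With the 4 regions of each genotype and number averaged first, which gives 3 values a genotype, Phex lost its call (adjusted p = 0.0578). The other 4 genes kept theirs with larger adjusted p: Dmp1 0.0231, Ibsp 0.0284, Ifitm5 0.0171 and Smpd3 0.00804. Over all genes 2115 were then called, against 5657.

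Whether the genotype effect differed between the jaws was tested directly, as the mandible effect minus the maxilla effect. Of the 5 genes 0 passed with limma, and 3 (Dmp1, Phex and Smpd3) had an unadjusted p under 0.05, where 6.7% of all tested genes were called in either direction. Phex came closest, at -2.61 ± 0.81 (adjusted p = 0.0603), before Smpd3 at -1.02 ± 0.34 (adjusted p = 0.0799) and Dmp1 at -3.16 ± 1.22 (adjusted p = 0.132). Ifitm5 differed by -0.94 ± 0.54 (adjusted p = 0.347) and Ibsp by -0.24 ± 0.65 (adjusted p = 0.886). These results depended on the fit. With the replicate number as a block Dmp1 (adjusted p = 0.0391), Phex (0.00792) and Smpd3 (0.0387) passed, and the same 3 genes did with genotype and number as a random block (0.0404, 0.00852 and 0.0366). Phex also passed with array weights (adjusted p = 0.0366) and with the regions combined first (0.0308), and Phex (0.0363) and Smpd3 (0.0294) with the mean of probe sets. Single arrays changed it too: without mutant proximal mandible replicate 3, Dmp1 (adjusted p = 0.0165) and Phex (adjusted p = 0.0162) passed. Without mutant distal maxilla replicate 2, Phex (adjusted p = 0.0281) and Smpd3 (adjusted p = 0.0374) did, and without mutant distal mandible replicate 1, Smpd3 did (adjusted p = 0.0495).

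The genotype effect at the distal ends was likewise set against that at the proximal ends, and 0 of 5 genes passed with limma or had an unadjusted p under 0.05 (0.115% of all tested genes were called in either direction, 16 genes, or 48 with the replicate number as a block). Ifitm5 had the largest difference, 0.97 ± 0.54 (adjusted p = 0.687). Dmp1 had the smallest, 0.25 ± 1.22 (adjusted p = 0.993, interval -2.30 to 2.79), an interval wide enough to hold a large difference either way.

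In control jaws the same 5 genes had 1 order of regions. Group means were highest in the proximal mandible, then the distal mandible, the proximal maxilla and the distal maxilla. Every control distal mandible array lay below every control proximal mandible array for all 5 genes, for example at 9.30, 10.15 and 9.86 in the distal mandible against 11.68, 11.74 and 11.59 in the proximal mandible for Phex. The share of all tested genes with this separation was not counted. The distal mandible and proximal maxilla overlapped for Phex and Ifitm5, and the 2 ends of the maxilla overlapped for all 5. Mandible over maxilla, 4 of 5 genes were higher (16.7% of all tested genes were called higher). Smpd3 differed most reliably, at 1.66 ± 0.24 (adjusted p = 2.42e-05), followed by Ifitm5 at 1.83 ± 0.38 (adjusted p = 0.000893) and Phex at 2.16 ± 0.57 (adjusted p = 0.00605). Dmp1 differed by 2.66 ± 0.86 (adjusted p = 0.0207), a call lost without control distal maxilla replicate 2 (adjusted p = 0.0551) or control proximal maxilla replicate 2 (0.0528). Ibsp differed by 1.13 ± 0.46 and missed the threshold (adjusted p = 0.0659). It passed with the replicate number as a block (adjusted p = 0.00945), with array weights (0.0167), with the mean of its probe sets (0.0168), with only the control arrays (0.0086) or without control distal maxilla replicate 3 (0.0411).

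Distal minus proximal within the control mandible, 0 of 5 genes passed with limma in the fit to all 24 arrays, where 5.45% of all tested genes were called in either direction, although Phex (-1.90 ± 0.81, adjusted p = 0.227), Ifitm5 (-1.65 ± 0.54, adjusted p = 0.0897) and Smpd3 (-0.96 ± 0.34, adjusted p = 0.12) had an unadjusted p under 0.05. Under the replicate block Phex (adjusted p = 0.0487) and Ifitm5 (adjusted p = 0.0194) were called. Fitted on the 6 control mandible arrays alone, all 5 passed, with adjusted p from 0.000361 for Dmp1 to 0.00221 for Ibsp, where 1869 of all tested genes were called in either direction. That fit takes its spread from those 6 arrays only. Within the control maxilla 0 of 5 passed (10.9% of all tested genes were called in either direction) and none had an unadjusted p under 0.05, with log2 differences from -1.07 for Phex to -0.11 for Dmp1.

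In mutants the order of regions differed. For Ibsp, Phex, Ifitm5 and Smpd3 the proximal mandible had the highest mean and the distal maxilla the next, for example 10.68 and 9.71 for Ifitm5, before 8.55 in the distal mandible and 7.74 in the proximal maxilla. Dmp1 averaged 8.09 in the distal maxilla and 8.08 in the proximal mandible, with 6.10 in the proximal maxilla and 5.11 in the distal mandible. Neighbours in these orders mostly overlapped, since the mutant arrays were spread widely.

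**Figure D3:**
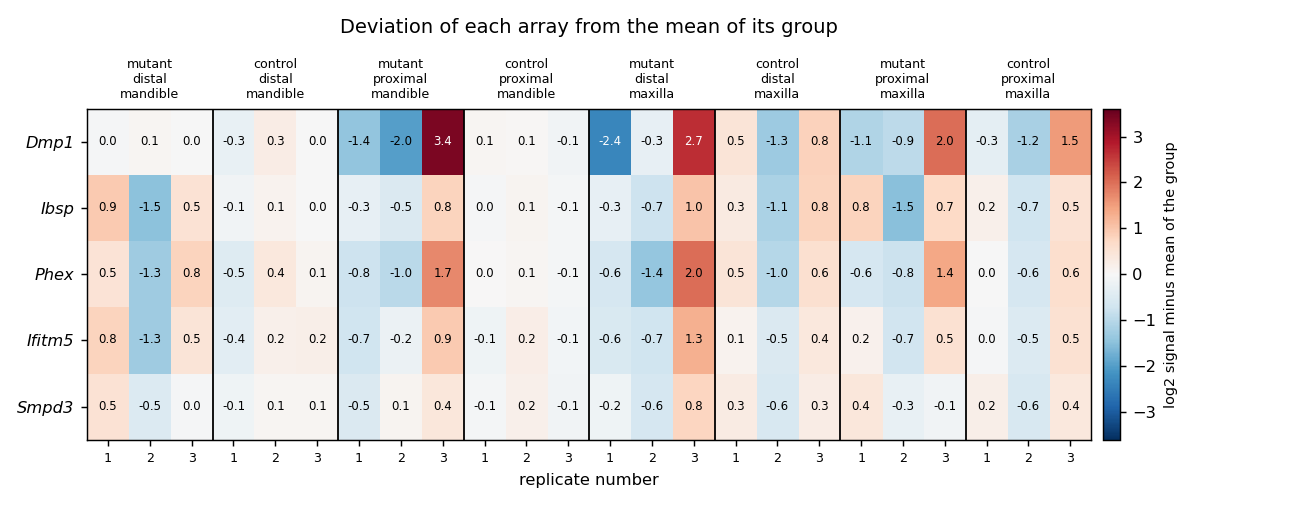
Deviation of each array from the mean of its own group, in log2 signal, for the 5 tested genes (rows) on the 24 arrays (columns, replicate numbers 1 to 3 within each group), in red where higher and blue where lower than the mean. Mutant proximal mandible replicate 3 and mutant distal maxilla replicate 3 are red for all 5 genes, and the control mandible columns are nearly white.

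Spread within groups was larger in mutants than in controls for these genes, and a large mutant spread was known beforehand. The pooled SD within groups was 2.13 in mutants and 0.91 in controls for Dmp1, 1.43 and 0.58 for Phex, 1.09 and 0.60 for Ibsp, 0.95 and 0.40 for Ifitm5, and 0.52 and 0.37 for Smpd3. The median over all tested genes was 0.133 in mutants and 0.125 in controls. Of all tested genes, 4 had a larger SD than Dmp1 within mutant groups, and 19 did within control groups. For Phex, Ibsp, Ifitm5 and Smpd3 these counts were 25, 74, 115 and 528 in mutants. In controls they were 198, 170, 503 and 591. The control spread was thus also large, and it lay mainly in the maxilla. In the control proximal mandible the SD was 0.11 for Dmp1, 0.09 for Ibsp and 0.08 for Phex.

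Replicate 3 was the highest array for all 5 genes in the mutant proximal mandible and in the mutant distal maxilla. For Dmp1 its gap to the next mutant array was 4.82 (proximal mandible), 2.95 (distal maxilla) and 2.94 (proximal maxilla). In the mutant distal mandible replicate 3 was not apart, and Dmp1 there was below the filter level on all 3 arrays. Other gene lists differed on these arrays too, though not all in the same direction. The mean of 8 other bone matrix genes was 11.99 on mutant proximal mandible replicate 3 and 11.42 and 11.44 on replicates 1 and 2. That of 5 cartilage genes was 9.96, against 8.16 and 8.25, and that of 7 osteoclast genes was 8.10, against 7.09 and 7.18. In the mutant distal maxilla the same 3 lists were also highest on replicate 3, at 11.89, 9.30 and 7.59. In the mutant proximal maxilla the bone matrix and osteoclast lists were highest on replicate 3, at 11.56 and 7.08. The cartilage list was lowest there, at 7.20, against 8.22 and 8.48 on replicates 1 and 2. So was the mineral and phosphate handling list, at 8.89, against 9.10 and 9.01. The part of dissection, stage or pooling in these deviations was not tested.

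Deviations from the group means ran together among the 5 genes, which share the same arrays. Within mutant groups (12 arrays) Pearson's r was 0.91 between Ibsp and Ifitm5 and between Phex and Ifitm5, and lowest between Dmp1 and Smpd3, at 0.44. Within control groups (12 arrays) it ranged from 0.87 to 0.94. Where a gene had further probe sets, those of Dmp1, Ibsp and Smpd3 changed in the same direction. Over the 4 regions, the 3 Dmp1 probe sets changed by -3.96, -4.10 and -2.88, the 2 Ibsp probe sets by -2.04 and -2.43, and the 3 Smpd3 probe sets by -1.14, -1.20 and -1.13. In the proximal mandible the second Ibsp probe set, 1417485_at, changed by -2.48, where the main one changed by -1.33. The second Phex probe set, 1450445_at, was above the filter level on 1 array, and changed by -0.20 where the main one changed by -2.12.

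The genes whose signal followed this group most closely were found from the correlation with the mean of the 5 genes' z-scores over the 24 arrays. The 10 closest were Sgms2, Col22a1, Col24a1, Panx3, Car3, Slc8a3, Cgref1, Ramp1, Cercam and Omd, with r from 0.97 for Sgms2 to 0.93 for Omd, and 32 genes had an r of at least 0.9. Sgms2 encodes a sphingomyelin synthase, which makes the lipid that Smpd3 cleaves, and its log2 change over the 4 regions was -1.92. These genes were picked for following a profile that is lower in mutants, so that change is not a separate result. Col22a1 and Col24a1 are collagen chains, Panx3 is a channel of osteoblasts and cartilage, and Omd (osteomodulin) is a bone proteoglycan. After removal of the group means r for the 10 genes ranged from 0.78 for Slc8a3 to 0.97 for Ramp1, and was 0.95 for Sgms2.

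Other genes of bone and mineral handling were read from fixed lists in the same fit, over the mean of the 4 regions, where 15.3% of all tested genes were called lower and 25.3% higher. A count of 1 gene in a list of 4 to 6 is near these shares. The p-values of this fit count the 4 regions as independent. Of 8 tested genes of other bone matrix proteins, 8 fell, with a median of -0.70. These calls came mainly from the mandible: each of its ends had 8 called lower, while the maxilla had 1 distally and 2 proximally. For the mandible effect minus the maxilla effect, 4 were called (6.7% of all tested genes in either direction). Over the mean of the 4 regions, Omd changed by -1.71 ± 0.21 (adjusted p = 3.37e-06). Ogn, another small leucine-rich proteoglycan, changed by -0.78 ± 0.09 (adjusted p = 3.57e-06), Bgn (biglycan) by -0.67 ± 0.07 (adjusted p = 5.21e-07) and Tnn (tenascin W) by -0.73 ± 0.10 (adjusted p = 1e-05). Of 10 tested genes of mineral and phosphate handling, 7 fell and 0 rose, with a median of -0.59. Among them were Mgp, an inhibitor of calcification (-1.77 ± 0.17, adjusted p = 3.54e-07), Panx3 (-2.07 ± 0.21, adjusted p = 5.92e-07), Ank, which exports pyrophosphate (-0.56 ± 0.08, adjusted p = 1.12e-05), and Fam20c, the kinase that phosphorylates the SIBLING proteins (-0.62 ± 0.10, adjusted p = 6.57e-05). The list thus holds both promoters and inhibitors of mineralisation. Slc20a1, Slc20a2 and Pth1r did not pass, and Fgf23 was below the filter.

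Of 6 tested osteoblast transcription factors, 2 fell and 1 rose, with a median of -0.16. Sp7 changed by -0.84 ± 0.14 (adjusted p = 9.82e-05) and Atf4 by -0.23 ± 0.04 (adjusted p = 7.13e-05), while Msx2, a homeobox factor of immature osteogenic mesenchyme, rose by 0.81 ± 0.12 (adjusted p = 2.07e-05). Dlx5 changed by -0.16 ± 0.09 (adjusted p = 0.157). Of 6 tested osteocyte genes, 3 fell and 1 rose, with a median of -0.13. Tnfrsf11b (osteoprotegerin) changed by -0.86 ± 0.11 (adjusted p = 8.86e-06) and Irx5 by 0.45 ± 0.09 (adjusted p = 0.000517). Of 6 genes for integrin subunits that bind the acidic glycoproteins, 2 fell, Itgav by 0.20 ± 0.04 (adjusted p = 5e-04) and Itgb1 by 0.20 ± 0.07 (adjusted p = 0.024). Of 6 listed dentin and enamel genes only 2 passed the filter, and Odam changed by -0.81 ± 0.17 (adjusted p = 0.000839). Dspp, the dentin member of the SIBLING family, was below the filter.

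**Figure D4:**
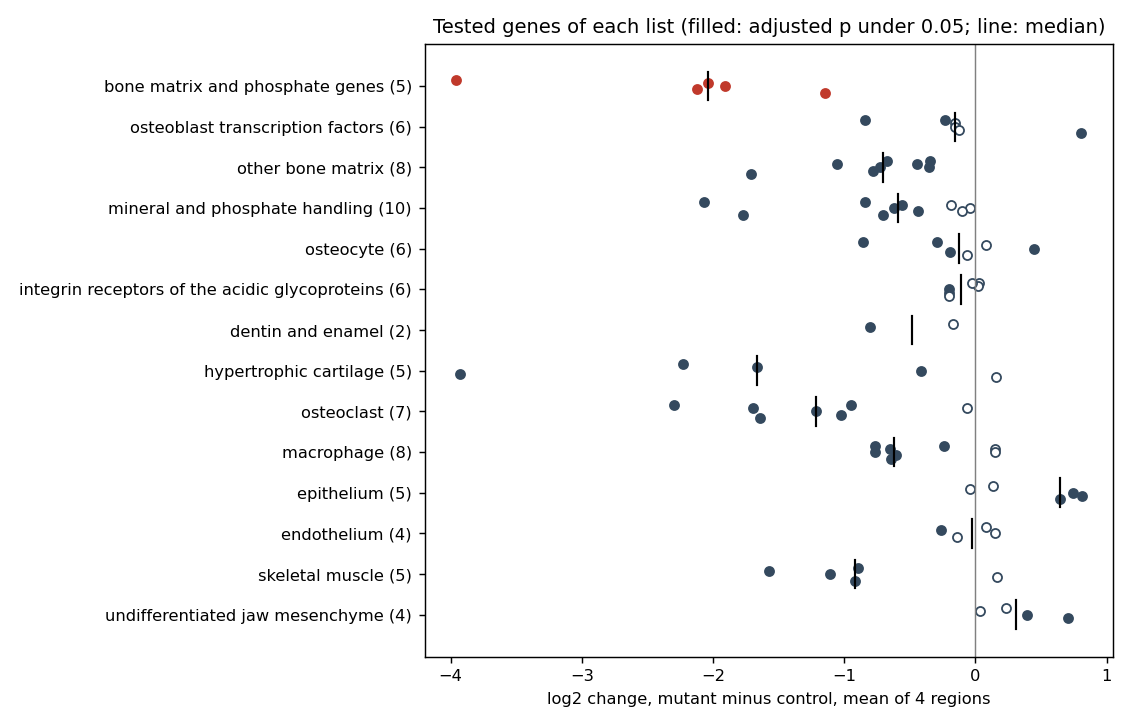
Log2 change, mutant minus control, mean of the 4 regions (horizontal axis), for each tested gene of 14 lists (rows, number of tested genes in brackets). Points are genes, filled where the adjusted p was under 0.05, and the short line is the list's median. The 5 bone matrix and phosphate genes, in red, have a median of -2.04, below that of every other list shown.

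Markers of other cell types also moved with genotype. Over the mean of the 4 regions, 6 of 7 tested osteoclast genes fell, with a median of -1.22, and 6 of 8 macrophage genes, with a median of -0.62. In each mandible region 6 osteoclast and 5 macrophage genes were called lower (7.98% of all tested genes distally and 10.4% proximally). In each maxilla region 0 of either list were (1.12% of all tested genes distally and 4.79% proximally). The macrophage median was -0.22 in the distal and -0.05 in the proximal maxilla. The mean level of the osteoclast list was 7.28 to 7.55 on mutant distal mandible arrays, against 8.98 to 9.23 on control distal mandible arrays. In the proximal mandible it was 7.09 to 8.10 in mutants, against 9.43 to 9.65 in controls. In the distal maxilla it was 6.83 to 7.59 in mutants, against 7.21 to 8.05 in controls, and in the proximal maxilla 6.69 to 7.08 in mutants, against 7.27 to 7.91 in controls. Of 5 tested genes of hypertrophic and other cartilage, 4 fell, with a median of -1.67, and Col10a1 was below the filter.

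Of 5 skeletal muscle genes 4 fell over the 4 regions, with a mean level of the list of 7.37 to 9.19 in the mutant distal mandible, against 10.54 to 11.69 in the control distal mandible. In the maxilla the muscle ranges overlapped, at 6.91 to 8.20 in the mutant and 6.88 to 7.85 in the control distal maxilla. Of 5 epithelial genes 3 rose, with a median of 0.64, and the mean level of the list was 10.93 to 11.43 in the mutant proximal maxilla, against 9.63 to 10.67 in the control proximal maxilla. In the distal maxilla 0 of the 5 were called by limma, where 413 of 13943 tested genes were called in either direction. With so small a share, a count of 0 in a list of 5 says little about these genes. Their median there was -0.39, with a mean level of 11.59 to 12.05 in mutants, against 11.79 to 12.52 in controls. Of 4 genes of undifferentiated jaw mesenchyme 2 rose, with Twist1 up by 0.70 ± 0.04 (adjusted p = 1.9e-09), and of 4 endothelial genes 1 fell, Kdr by 0.26 ± 0.05 (adjusted p = 0.000251). The share of these cell types was not measured, and its part in the changes of Dmp1, Ibsp, Phex, Ifitm5 and Smpd3 was not tested.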

How the data were processed

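RNA from 24 jaw samples was labelled from 5 µg of total RNA and hybridised to 1-colour arrays, per the labels. The deposited values are log2 signals made by the authors with RMA, per the submitters' processing notes, which give no version. The base was read from the range of 3.29 to 14.86. RMA equalises the arrays' distributions, and array medians ran from 7.03 to 7.12. Detection calls were not used here, so the filter level stands for background.

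Of 45101 probe sets, 34958 had 1 symbol, 932 several and 9147 none, and 64 were controls. RefSeq matched 34754 by gene identifier and changed 0 symbols. Of a gene's probe sets the one with the greatest mean was used. limma 3.58.1 (R 4.3.3; lmFit, eBayes with trend) estimated the mean of each of the 8 groups from all arrays together, with Benjamini-Hochberg adjustment over 13943 genes in each of 10 comparisons and an adjusted p threshold of 0.05. The fit was tested on simulated data. Plots were drawn with matplotlib 3.10.9, and promoter windows were scanned, in Python 3.11.15 with pandas 2.3.3 and numpy 2.4.6. Errors on changes are standard errors, two-sided tests throughout.

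From each context list up to 4 genes with the largest moderated statistic were eligible for naming. The members, lists and tests were chosen with earlier results of these data known. Sp7 and Col1a1 where the arrays were described, and Slc20a1, Slc20a2, Pth1r, Dlx6, Fgf23, Dspp and Col10a1, were named outside that rule. Replicate numbers are shared by the groups, and same-numbered arrays deviated together, with every correlation over 0.1, only for the mean of 4 regions, the comparison of ends of the genotype effect, and the control comparisons of the jaws and of the mandible ends. Alternatives were another normalization, array weights, no or a stricter filter (60th percentile), only the arrays compared, the replicate block, the mean of probe sets, a sex covariate and each array left out. After seeing the data 3 more were added: genotype and number as a random block, regions combined first, and mutant arrays numbered 3 left out.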

Additional observations from a re-analysis of the deposited data

How the results depend on the processing

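The precision is limited by 3 arrays a group and, for Dmp1, Phex and Mepe, by signals at the filter level. Of 465 values of single genes under alternatives other than a single array left out, 419 kept direction and call, 38 gained a call, 3 lost one and 5 changed sign. The sign changes were in the distal maxilla and uncalled: Smpd3 was -0.023 after a second quantile normalization, -0.073 with array weights and -0.33 without mutant arrays numbered 3, and Phex was -0.23 with array weights and -0.83 without those arrays. Counts of called genes among the 5 also moved. Counts over all genes, given below, moved in several of the same fits, so these shifts are not particular to the 5 genes. Without mutant arrays numbered 3, 1 was called in the distal maxilla, 5 in the proximal maxilla and 2 in the difference between jaws. With array weights 5 were called in the proximal maxilla, 1 in the difference between jaws and 3 in the control mandible ends. With only the arrays compared, 1 was called in the proximal maxilla and 5 in the control mandible ends. With the regions combined first, 1 was called in the difference between jaws (Phex) and 1 in that between ends (Ibsp), and with the mean of probe sets 2 were called in the difference between jaws.

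With the replicate number as a block, 5 of the 5 genes were called in the proximal maxilla, where the numbers do not pair the arrays, 3 in the difference between jaws and 2 in the control mandible ends. As a random block it gave 2 in the difference between jaws, and genotype and number as a random block gave 3. In the proximal mandible the block added Ibsp (adjusted p = 0.0386). The block changed no other call in the 5 genes except Ibsp in the control jaws. Genes called with the block numbered 1088 in the distal maxilla, 2397 in the proximal maxilla, 1521 in the difference between jaws, 48 in that between ends and 1156 in the control mandible ends. The random block gave 1445 and 42 for the differences between jaws and ends, and genotype and number as a random block 1704 and 67.

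Over all genes, array weights gave 4270 calls in the distal mandible, 1195 in the distal maxilla, 30 in the difference between ends and 2548 in the control mandible ends, against 2231, 413, 16 and 760 in the reported fit. Only the arrays compared gave 23 in the distal maxilla, 320 in the proximal maxilla, 1869 in the control mandible ends and 841 in the control maxilla ends. Without mutant arrays numbered 3 there were 1105 in the distal maxilla, 869 in the proximal maxilla, 927 in the difference between jaws and 91 in that between ends. The reported fit called 1471 in the proximal maxilla and 934 in the difference between jaws. The sex covariate gave 242 in the distal maxilla and 9 in the difference between ends, where no filter gave 9 and the mean of probe sets 8. Regions combined first gave 2115 for the mean of 4 regions, 558 between jaws and 147 between ends. The cause of these shifts was not tested.

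Leaving out 1 array at a time gave 1243 to 1825 calls in the distal mandible, 47 to 756 in the distal maxilla, 615 to 1439 in the proximal maxilla, 579 to 1226 in the difference between jaws, 1 to 42 in that between ends, 362 to 528 in the control mandible ends and 699 to 1782 in the control maxilla ends. Of the 5 genes, 2 to 4 were called in the proximal mandible (2 without mutant replicate 2) and 0 to 2 in the difference between jaws. In the distal maxilla the log2 change ranged from -0.90 to 0.067 for Ibsp, -0.83 to 0.87 for Phex, -0.86 to 0.13 for Ifitm5 and -0.33 to 0.35 for Smpd3. The difference between jaws ranged from -0.61 to 0.13 for Ibsp, and that between ends from -0.42 to 1.10 for Dmp1. In the control maxilla ends Dmp1 ranged from -0.70 to 0.65 and Ibsp from -0.72 to 0.25.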
